A study of Drosophila melanogaster with 4 samples.

Results

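Exon usage was compared between 2 stages of the third larval instar of Drosophila melanogaster, puff stage 1-2 and 12 hours into the instar, over every row of the authors' deposited table for that pair of stages. No row was selected by its fold or p-value. The table held 70463 exon bins in 14470 gene units, of 211389 bins in the 3 exon usage tables of the series. An exon bin is a stretch of exon between successive exon boundaries of the annotated transcripts of a gene, and a unit is a gene or a group of genes that overlap on a strand and were merged before counting.

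The study asked how much of the difference in messenger RNA between larvae with and without Smn mutations goes with slower development. Its own 4 libraries, from 2 samples of Oregon R wild type and 2 of the mutants at 74 ± 2 h after egg laying, were sequenced for that purpose, and none of them enters the comparison described here. The authors also ran published modENCODE paired-end libraries of normal larvae through their pipeline, with 3 libraries for puff stage 1-2 and 2 for the third instar at 12 hours. The strain of the modENCODE larvae, and whether their libraries came from separate cultures, are not given in the sources used here, so p-values measure the spread between these libraries, which may be technical. All groups were whole larvae, in which fewer cells of a type and less RNA per cell cannot be told apart.

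The last larval instar ends with pulses of the steroid hormone ecdysone. The hormone binds a nuclear receptor that turns on a small set of early transcription factor genes, seen as puffs on the giant chromosomes of the salivary gland, and these in turn control later genes. Puff stages follow the clearing of a blue dye from the gut of larvae that stop feeding and wander. A gene can give different messenger RNAs from different promoters, splice sites and polyadenylation sites, and a bin used by only some of them shifts in usage when their proportions shift.

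The deposited fold is a log2 ratio of a bin's usage at puff stage 1-2 over that at 12 hours, given the other bins of its gene. A positive value means a larger share of the gene's reads at the puff stage, not a higher level of the gene. Bins of a gene therefore move against each other, and the bins of a gene with only 2 carry the same p-value with opposite signs. The table holds no value for single libraries and no standard error, so the error given beside a bin is the coefficient of variation (CV) between libraries that follows from its mean normalized count and the dispersion of the authors' fit. A bin was called when its adjusted p (DEXSeq, Benjamini-Hochberg over all tested bins) was under 0.05. How the folds were scaled is not given in the sources used here, and they were smaller than the p-values would imply from the counts and dispersions, so they are given as deposited. All folds, mean normalized counts and adjusted p-values below are from the authors' deposited tables.

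Exon usage differed between the stages in a small part of the genes. Of 45304 tested bins, 289 were called, or 0.638%, of which 161 were higher at the puff stage (0.355%) and 128 lower (0.283%). They lay in 169 of 8717 tested genes (1.94%). The median absolute log2 fold was 0.73 among called bins, with quartiles of 0.37 and 1.35, and 0.10 among all tested bins. Unadjusted p-values under 0.05 were found for 1883 bins, 4.16% of those tested. At the threshold, bin 6 of Cyp4e1 lay just inside with an adjusted p of 0.0497, and bin 7 of the merged unit CG7341 and CG32195 just outside with 0.0505.

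Most called genes had a single called bin. A single bin was called in 107 genes, 2 bins in 41, 3 bins in 8 and 4 or more in 13. Of the 62 genes with at least 2 called bins, 50 had bins called in both directions, 7 only higher and 5 only lower bins, which the relative scale of the values favours. Genes with more tested bins were called more often, from 0.646% of genes with 1 to 3 tested bins to 10.95% of those with 16 or more. Runs of at least 2 adjacent bins called in the same direction numbered 29 in 22 genes, and the longest, of 5 bins, were in bt and Eip74EF.

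**Figure D1:**
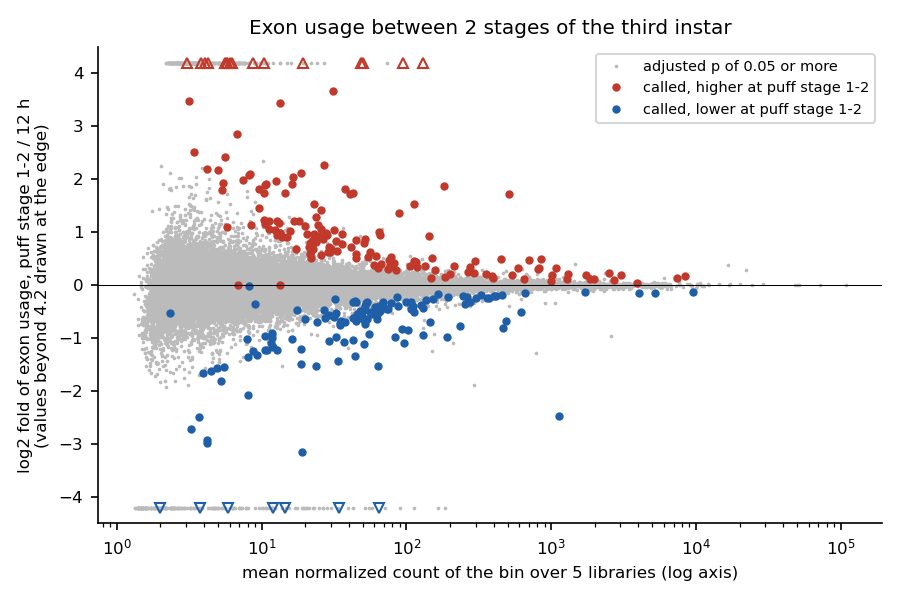
Each point is a tested exon bin, with its mean normalized count over the 5 libraries on a log axis and the log2 fold of its usage at puff stage 1-2 over 12 hours. Called bins are coloured by direction, and triangles at the edge stand for the 23 called bins with an absolute fold of 10 or more. Called folds were smaller among bins with high counts.

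Folds were smaller in bins of greater depth. Over all tested bins the median absolute log2 fold was 0.25 in the lowest quartile of mean normalized count and 0.045 in the highest. Among called bins the threshold itself favours this, since a bin of few counts needs a larger fold to be called. Called bins with an absolute fold under 0.5 had a median mean normalized count of 157, and those with a fold between 1 and 4 had 12.7. The 23 called bins with a fold of 10 or more had mean normalized counts between 2.00 and 129, and 13 of them were under 10. The table gives no level per stage, so a fold of that size is not read here as a ratio. The median CV was 22.6% for called and 35.01% for tested bins.

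Muscle sarcomere genes had the highest share of genes with a called bin among the 15 lists examined, at 6 of 20 tested genes (30%) beside 1.94% of all genes. These were bt, sls, Mf, up, Tm1 and Actn. Their 26 called bins were 12 higher and 14 lower at the puff stage, of 274 tested. Of 30 listed sarcomere genes 25 were found by name, and Mhc, wupA, Zasp52, Strn-Mlck and Msp300 were not. Of 133 called single genes 19 had no name, so the shares of the lists cover only members found by name. The median list member had 9.5 bins, and 15 of the 26 called bins were those of bt. Across all genes, bins in the lowest quartile of mean normalized count were called in 0.265% of cases and those in the highest in 1.30%, and the part of depth in the shares of the lists was not tested.

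The gene bt encodes projectin, a giant titin-like protein that links the thick filaments of insect muscle to the Z-disc. It lies on the plus strand of chromosome 4 and had the most called bins of any gene, 15 of 46 tested. From bin 29 to bin 38 all 10 bins were lower at the puff stage, with folds from -1.53 to -0.85, and 9 of them were called. Their CVs lay between 11.6% and 33.7%. Bin 39, with a mean normalized count of 1722, had a fold of -0.14. From there to the 3′ end all 8 bins had positive folds, from 0.20 to 0.49, and 5 were called. Of the 27 tested bins 5′ of this stretch, 26 had negative folds (median -0.59) and none was called, at mean normalized counts of 1.91 to 49.1.

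**Figure D2:**
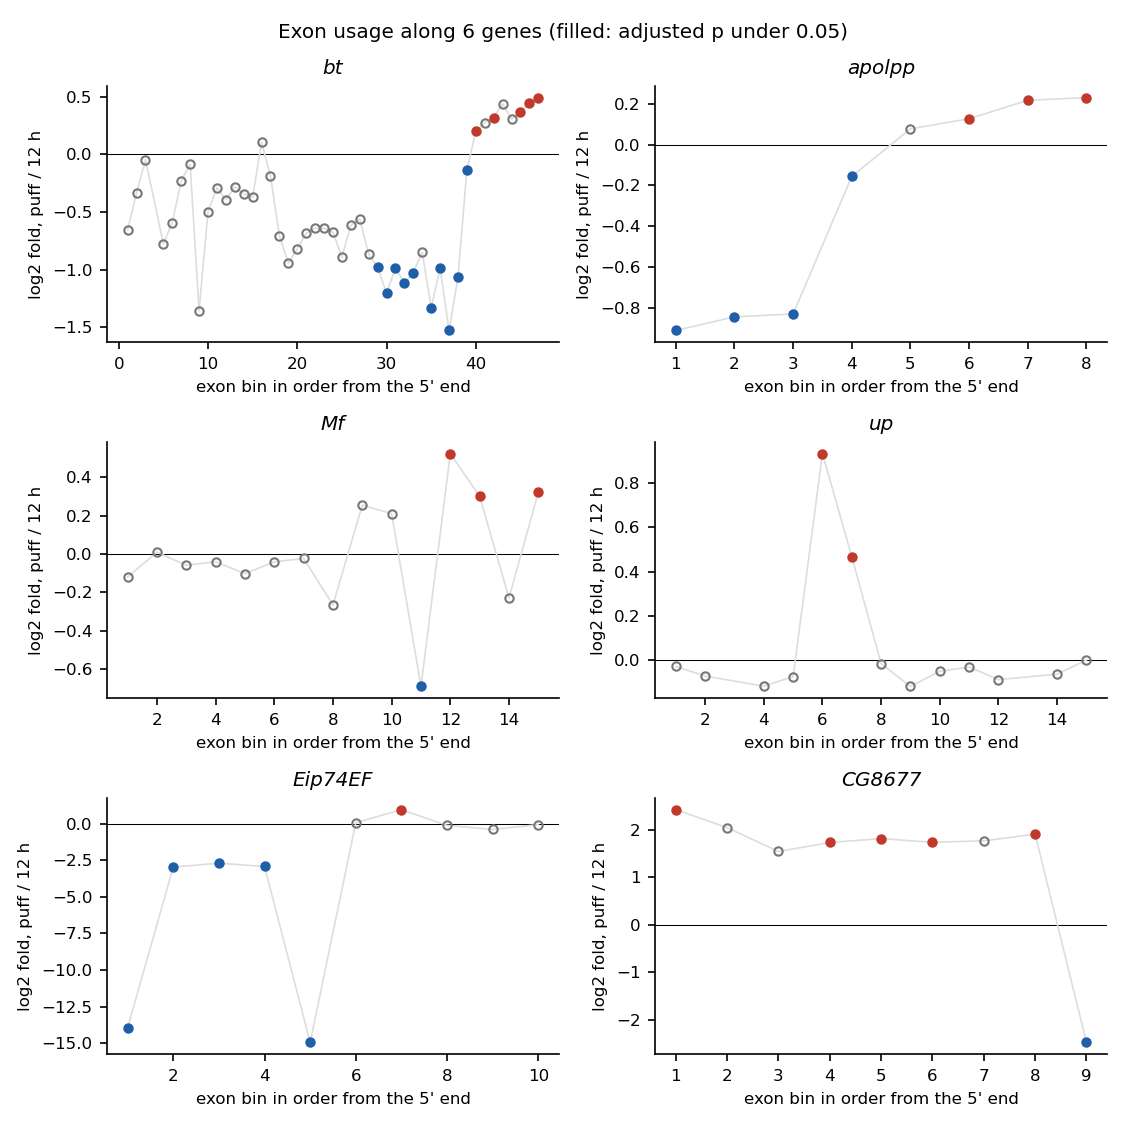
The log2 fold of usage at puff stage 1-2 over 12 hours is plotted for each tested bin in order from the 5′ end of bt, apolpp, Mf, up, Eip74EF and CG8677. Filled points were called, red where higher and blue where lower at the puff stage. In bt and apolpp the called bins are lower first and higher towards the 3′ end, and in up a pair of neighbouring bins stands above the rest.

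The other sarcomere genes differed at single bins or pairs. The gene up encodes troponin T, which ties troponin to tropomyosin on the thin filament. Its neighbouring bins 10 and 9 rose, with folds of 0.93 (CV 12.9%) and 0.47 (CV 8.21%), while its 11 other tested bins had folds between -0.12 and 0.00 and none was called. Mf encodes myofilin, a protein of the thick filament. Its bin 5 fell by 0.69 (CV 12.8%) and the next bin towards the 3′ end, bin 4, rose by 0.52 (CV 19.2%), followed by rises of 0.30 in bin 3 and 0.32 in bin 1.

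The long gene sls encodes the titin homologue of the Z-disc and I-band. Of its 34 tested bins 3 were called, bin 23 at -0.59, bin 13 at -0.48 and bin 2, near the 3′ end, at 0.37. Tm1, a tropomyosin gene with 26 tested bins, had 1 called bin, at -1.33 with a mean normalized count of 9.33 and a CV of 44.1%. Actn encodes alpha-actinin, the actin crosslinker of the Z-disc. Its bin at the 5′ end rose by 1.03 at a mean normalized count of 15.6 and a CV of 34.3%. In the reference annotation Actn overlaps usp by 265 bases on the same strand.

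Ecdysone response genes had 2 genes called of 16 tested (12.5%, beside 1.94% of all tested genes), Eip74EF and ftz-f1. They had 1 bin higher and 6 lower. Of 25 listed genes 21 were found by name, and br, Hr4, Eip93F and let-7-C were not. Eip74EF is an early ecdysone gene that encodes an Ets domain transcription factor and is transcribed from several promoters into forms with different 5′ parts. All 5 bins at its 5′ end were lower at the puff stage. Bins 9, 8 and 7 had folds of -2.97, -2.71 and -2.93, and bins 10 and 6 had -13.94 and -14.95. Their mean normalized counts were low, from 2.00 to 5.84, with CVs of 55.5% to 94.4%. Bin 4, the 7th from the 5′ end, rose by 0.95 at a mean normalized count of 65.9 and a CV of 20.2%. The 3 bins at the 3′ end had folds from -0.41 to -0.07 and were not called.

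The gene ftz-f1 encodes a nuclear receptor that sets the competence of tissues to respond to later ecdysone pulses. It had 1 called bin of 10 tested, the next to the 5′ end, with a fold of -12.83 at a mean normalized count of 12.03. The 8 bins on its 3′ side had folds between -0.34 and 0.14 and none was called.

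In the fat body list 1 of 14 tested genes (7.14%, beside 1.94% of all tested genes) was called. This was apolpp, which encodes the precursor of the apolipophorins, the protein part of the lipid carrier of the haemolymph, and which lies on chromosome 4. Of its 8 bins 7 were called. The 3 bins at the 5′ end fell, with folds of -0.91, -0.85 and -0.83 at mean normalized counts of 54.8 to 102 and CVs of 14.7% to 19.1%. Bin 4, with a mean normalized count of 4037, had a fold of -0.16. The 3 bins at the 3′ end rose by 0.13, 0.22 and 0.23, at mean normalized counts of 1305 to 7367.

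Folds were also compared along genes with at least 8 tested bins of a mean normalized count of 10 or more, by rank correlation of fold and bin order, a description across bins that share their libraries. The correlation was positive, that is towards the 3′ end, in 66.7% of 517 genes with no called bin among the bins so compared. It was positive in 16 of 30 genes with such a called bin (53.3%). Genes called only at a bin of lower count, such as Tm1, were among the 517. The median fold of the bins nearer the 3′ end minus that of the bins nearer the 5′ end was also taken. It had a median of 0.05 in the 517 genes and -0.01 in the 30. This difference was 1.01 in apolpp, 0.27 in Mf, 0.14 in sls and -0.15 in cher. In bt it was -0.20, although its rank correlation was positive, at 0.24. The part of this slope in the results for bt and apolpp was not tested.

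Metabolic lists had 3 called bins of 121 tested in glycolysis and sugar metabolism (2.48%) and 4 of 97 in mitochondrial respiration (4.12%). Over all tested bins the share was 0.638%, and over all tested genes 1.94%. Of 19 tested genes of glycolysis and sugar metabolism, 2 were called (10.5%). Tpi encodes triose phosphate isomerase, and its bin 3, which held no coding sequence in the reference annotation, rose by 0.54 (CV 16.4%), while its bins 1 and 2 had folds of -0.04 and 0.01. Ald1 encodes aldolase. Its bin at the 5′ end rose by 0.17 and its bin 3 fell by 0.24. Of 20 tested units of mitochondrial respiration, 2 were called (10%). In the merged unit of Ant2 and sesB, neighbouring genes for ADP/ATP translocases, the 3 bins at the 3′ end rose by 1.05 to 1.15. Their mean normalized counts were 8.48 to 25.5, with CVs of 27.1% to 46.2%, beside up to 6559 in the other bins. With merged units left out, 1 gene of the list was called. RFeSP encodes the Rieske iron-sulphur protein of complex III, and its bin 2 fell by 0.45 (CV 16.8%).

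Ribosomal protein genes had 4 called of 70 tested (5.71%, beside 1.94% of all tested genes), with 2 bins higher and 4 lower. In RpL10, RpL27 and RpS18 a bin at or next to the 5′ end was lower at the puff stage. The folds were -0.50 in RpL10, -0.26 in RpL27 and -0.32 in RpS18. The bins of RpL10 and RpS18 were 5′ untranslated in the reference annotation. RpL10 also had a rise of 0.12 in its 3′ untranslated bin, and the 2 bins of RpL27 were paired, with 0.04 in the other.

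Among cuticle genes 2 of 15 tested (13.3%, beside 1.94% of all tested genes) were called. Lcp2, a larval cuticle protein gene of 2 bins, had a fold of -0.51 at its 5′ bin (CV 28.6%) and 0.17 at the other. TwdlE, of the Tweedle family of cuticle proteins, had a called rise of 0.56 in bin 1, and its other 2 bins had folds of -1.53 and -1.16 that were not called.

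Among genes of the cytoskeleton and adhesion 3 of 25 tested units (12%) were called. The gene cher encodes filamin, and its bin 4 fell by 0.29 (CV 13.1%). That was the only called bin of bins 1 to 5 at the 3′ end, which all had negative folds, from -0.45 to -0.07. The 13 bins from 8 to 20 all had positive folds, from 0.04 to 0.25, and none was called. The gene shot encodes a spectraplakin that joins actin to microtubules, and its bin 19 fell by 0.35 (CV 11.6%). In the merged unit of CG15742 and mew, an integrin alpha subunit gene, bin 11 rose by 2.20 at a mean normalized count of 4.16. Ppn encodes the extracellular matrix protein papilin, and its coding bin 8 fell by 0.63 (CV 18.1%). It was the only called gene of the 9 tested extracellular matrix genes found by name (11.1%). Of the 12 listed, LanB1, LanB2 and trol were not found by name and were not counted. Syt1, the synaptic calcium sensor, was the only called gene of 16 tested in the neuronal list (6.25%), in which cac, para and Shab were not found by name. It had falls of 1.56 and 0.99 in bins 4 and 2 at mean normalized counts of 4.89 and 11.8. Over all tested genes the share called was 1.94%, and in genes with 8 to 15 tested bins it was 4.55%. The part of the number of bins in the shares of these lists was not tested.

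No gene was called by DEXSeq's adjusted p among 26 tested splicing regulators, 17 genes of insulin and Tor signalling, 11 translation factors, 7 subunits of the V-ATPase and 6 salivary glue genes. Over all tested genes the share was 1.94%, so lists of this size can hold no called gene without differing from other genes. At a DEXSeq adjusted p under 0.10, 2 translation factors were called, eIF4A (0.0707) and eIF4G1 (0.0787). The other lists named here still had no called gene at that threshold. Of 37 listed splicing regulators 28 were found by name, and of 17 listed V-ATPase subunits 8. Of 20 listed genes of insulin and Tor signalling 17 were found, and Tor, InR and S6k were not. Of 17 listed translation factors 13 were found, without eEF1alpha1, eEF5, eIF2alpha and pAbp. The median absolute log2 fold of tested bins was 0.09 in splicing regulators and 0.34 in the glue genes, beside 0.10 over all tested bins. Smn itself has 1 bin in the table and so was not tested.

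**Figure D3:**
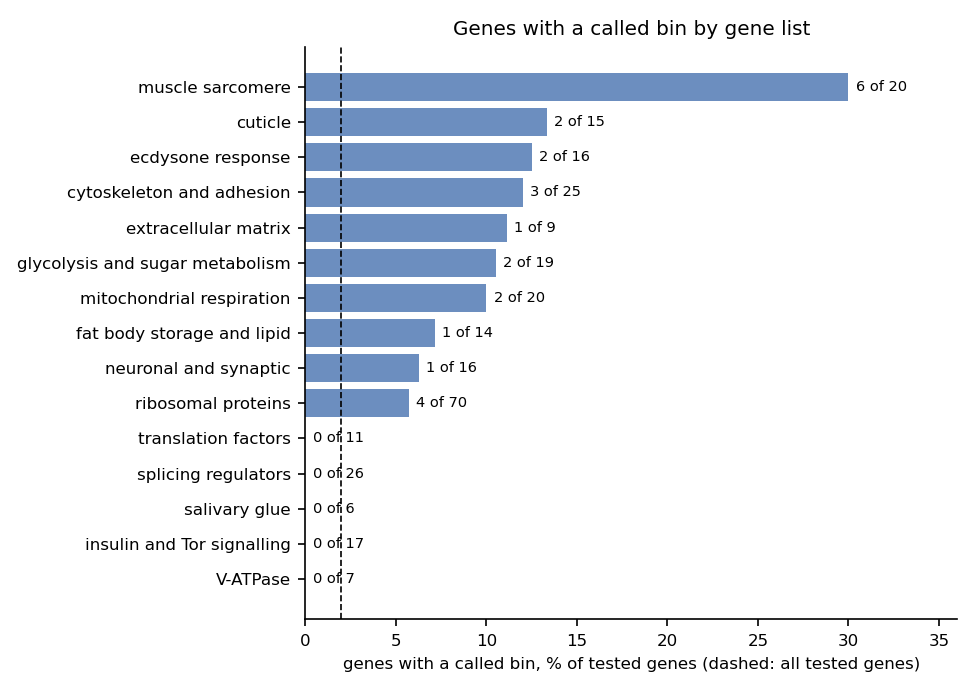
Bars give the share of tested genes with at least 1 called bin in each list, with the counts beside them, and the dashed line is the share of all tested genes, 1.94%. Muscle sarcomere genes reached 30%, and 5 lists had no called gene.

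Genes outside the lists had some of the largest folds. In CG8677, on chromosome arm 2L, all 8 bins before the last had positive folds from 1.54 to 2.42, and 5 were called. Its last bin, 3′ untranslated in the reference annotation and with a mean normalized count of 1139 beside at most 42.4 in the others, had a fold of -2.48 (CV 10.8%). Gasp encodes a chitin-binding protein of the cuticle and trachea, and its coding bin at the 3′ end rose by 1.00 (CV 18.4%) while its other 5 bins lay between -0.19 and 0.04. Gs2 encodes a glutamine synthetase, and its bin at the 5′ end rose by 0.62 (CV 19.9%). In CG12576 bins 5 and 4 at the 5′ end rose by 0.99 and 0.81, and bin 3 had a fold of -13.96 at a mean normalized count of 14.4.

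Several of these genes share exons with a gene on the opposite strand in the reference annotation. The strand setting of the counting is not given in the sources used here, so reads of such a pair cannot be told apart. The tetraspanin genes Tsp42Eo and Tsp42Ep overlap each other by 889 bases. The last bin of Tsp42Eo rose by 1.35. Bins 3 and 2 of Tsp42Ep rose by 1.53 and 1.88, and its bin 1 fell by 0.93. CtIP, a gene of DNA end resection, overlaps Hpd by 141 bases, and its bins 2 and 3 rose by 1.45 and 1.22 while its last bin fell by 0.73. The gene exu, known for placing bicoid messenger RNA in the oocyte, overlaps galla-1 by 397 bases, and its last bin rose by 0.86. Overlaps of this kind were also found for Ald1, Actn, Tm1, cher, RFeSP, CG12576, TwdlE, RpL27, sls and apolpp. They were present in 48.2% of 114 called single genes and 33.6% of 7775 tested ones, and their part in the calls was not tested.

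Merged units held a larger part of the calls than of the tests. They had 74 of the 289 called bins, 25.6%, beside 4.68% of tested bins, and 36 of their 286 tested units were called (12.6%) beside 1.58% of 8431 single genes. Reads of the joined genes are counted together there, so a change in the level of a gene of the unit shifts the usage of its bins. The units named next were chosen after their values were seen. In the unit of Adh, the alcohol dehydrogenase gene, and Adhr, bins 1 and 2 rose by 1.72 and 0.97, bin 3 fell by 0.82, and bins 5 and 6 fell by 0.12 and 0.15. In the unit of Sur-8, CG34279 and CG34280, bins 6 to 9 rose with folds of 3.67 to 16.93, and bins 2 to 4 fell by 0.22 to 0.36. In the unit of sea, a mitochondrial citrate carrier gene, and fabp, a fatty acid binding protein gene, bins 1 to 3 fell by 0.68 to 0.77 and bins 7, 8 and 10 rose by 0.18 to 0.33.

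Called bins held larger shares of gene ends than tested bins did, a difference that was not tested. Among single genes with at least 4 bins, the last bin in the direction of transcription made up 20.5% of 161 called and 14.0% of 32089 tested bins, and the first bin 16.1% and 10.7%. Of bins higher at the puff stage 28.6% were last bins, and of bins lower 11.7%. In genes whose number of bins equalled that of the reference annotation, 37 of 46 called bins (80.4%) were coding, beside 93.1% of 14763 tested bins, 5 were 5′ untranslated and 3 were 3′ untranslated.

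**Figure D4:**
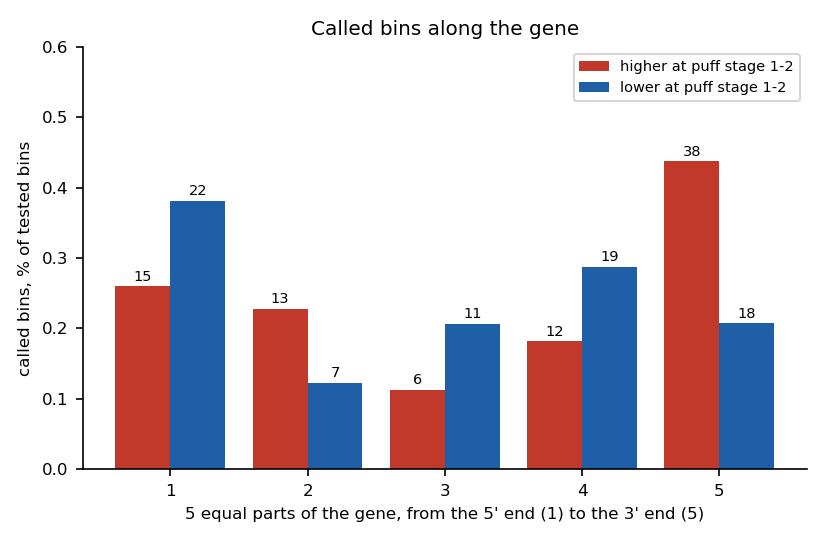
Bars give called bins as a percentage of tested bins in 5 equal parts of the gene from the 5′ end to the 3′ end, with their number above each bar. The part at the 3′ end had 38 higher and 18 lower bins, and that at the 5′ end 15 higher and 22 lower.

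The same bins can be read in the other exon usage tables, and the bins given were chosen after their values were seen. The second instar table shares the 3 puff stage libraries with the present comparison, and the table of Smn mutants against wild type shares none. In bt bin 37 the fold was -1.53 against 12 hours, -1.29 against the second instar and 0.24 in mutants over wild type, where the adjusted p was 0.642. In up bin 9 these folds were 0.47, 0.69 and -0.51, and the mutant value had an adjusted p of 0.000444 in the authors' DEXSeq fit. The neighbouring bin 10 had 0.93, 0.92 and -0.67, with an adjusted p of 0.233 in the mutant table. The last bin of CG8677 had -2.48, -2.57 and 2.65. Bin 9 of Eip74EF had -2.97, -2.16 and 2.87, with an adjusted p of 2.48e-06 in the mutant table and none in the second instar table, where it was not tested and had a mean normalized count of 0.977. Bin 5 of Tsp42Eo had 1.35, 1.29 and -2.23. Bin 1 of the Adh and Adhr unit had 1.72, 4.05 and -3.65.

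Other bins did not have opposite signs in the mutant table. Bin 3 of Tpi had folds of 0.54, 0.68 and 0.83, and bin 6 of RpL10 had -0.50, -0.30 and -0.26. Bin 2 of RFeSP had -0.45, -0.24 and -3.26. Bin 1 of Gasp had 1.00, 1.93 and 0.68, the last with an adjusted p of 0.223. The first bin of apolpp had -0.91, -0.78 and -0.13, the last with an adjusted p of 0.846. The whole tables had 505 of 48872 bins called against the second instar (1.03%) and 1571 of 52485 in the mutants (2.99%).

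**Figure D5:**
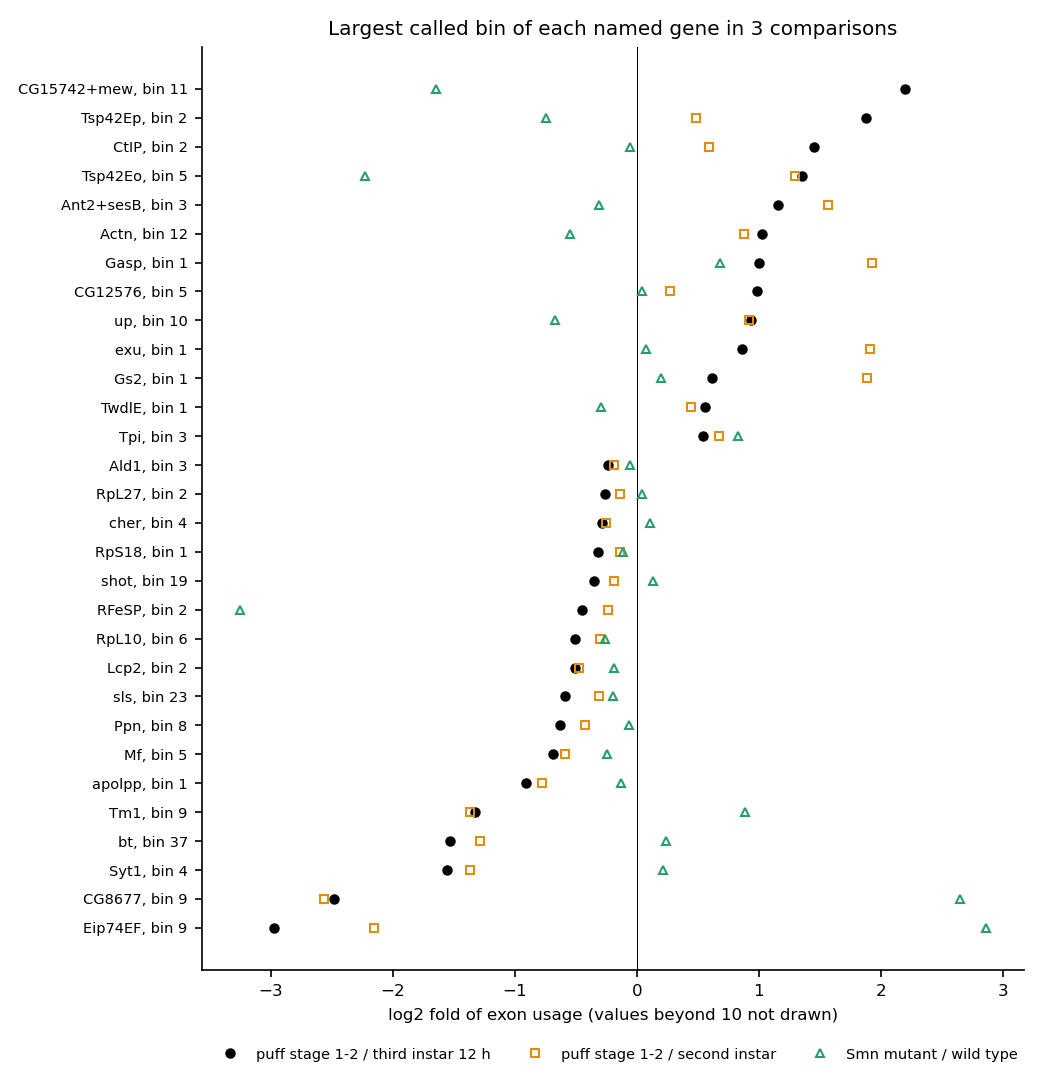
For each gene named in the text that has one, the called bin with the largest absolute log2 fold under 10 is shown in the comparison of puff stage 1-2 with 12 hours (black circles), with its fold against the second instar (orange squares) and in Smn mutants over wild type (green triangles). The stage comparisons share the 3 puff stage libraries, and folds beyond 10 are not drawn.

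Tissue markers could be read only as mean normalized counts over all 5 libraries, so neither stage label was checked. Summed over bins these were 16692 for Mlc1 and 10973 for Tm2 of muscle, 56548 for Lsp1alpha and 67713 for Lsp2 of the fat body, and 19268 for Sgs3, a salivary glue gene. The neuronal markers elav, nSyb and Syt1 were at 39.4, 58.1 and 326. Mhc was not found by name, so its bins were not examined under that name and could be among the identifiers left unnamed.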

How the data were processed

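Reads were aligned to dm3 by the authors (TopHat 2.0.8 with Bowtie2 2.1.0, per the deposited readme), who converted files with Samtools 0.1.19, and made the exon usage tables with DEXSeq 1.0.2 or later. Per the file headers, each table holds the authors' p-value and adjusted p-value, a log2 fold, a dispersion and a mean normalized count (a signal that the authors averaged across all libraries of that comparison). The depth of single libraries is unknown. The scaling of the deposited log2 fold is not given in the sources used here.

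No test was fitted here: counts, medians and shares were computed from the deposited values in Python 3.11.15 with pandas 2.3.3, NumPy 2.4.6 and SciPy 1.17.1, with functions checked on simulated data. The CV of a bin is the square root of the dispersion plus the inverse of the mean normalized count. Names were found for 13524 of 14869 gene identifiers, and the others are left unnamed. List members not found by name were left out of the lists. The reference was dm6 with Ensembl annotation 115, so no coordinates or sequences are given, and it served for names, strand, exon overlaps and bin classes. Bins are numbered along the chromosome on either strand, as bin lengths and counts showed, and were ordered 5′ to 3′ by strand.

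Named genes were single genes with the 10 largest positive and 10 largest negative folds among called bins with a mean normalized count of at least 50, the 5 with the most called bins, list members with a called bin, and Smn. The values of 1 gene that met this rule are not reported here. Members, lists and rules were chosen with earlier results of these data known. The authors' fit left 25159 bins without a test.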

Additional observations from a re-analysis of the deposited data

How the results depend on the processing

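Of 37 alternative values of the 5 summary results, 28 stayed within 1.5 times the reported count or within the 95% interval of the reported median or share. That interval treats called bins as independent. Bins share libraries and genes, so it served only as a yardstick and does not measure the spread between libraries. The cause of the shifts below was not tested. With p-values adjusted again over bins with a mean normalized count of at least 50, 160 bins were called, 78 of them higher, in 106 genes, with a median absolute log2 fold of 0.34 and 37.5% of bins at gene ends; Actn, ftz-f1, Syt1, TwdlE and the units of Ant2 and sesB and of CG15742 and mew were then not called. With a minimum of 10 the median fold was 0.59, and Tm1 and the unit of CG15742 and mew were not called. Without merged units 102 bins were higher among 196 called. With an absolute fold of at least 0.5 required, 188 bins were called, and Ald1, RpS18, shot, cher, RFeSP and RpL27 were among the genes lost. Among genes with at least 8 bins, 22.5% of called bins were at an end, and the share of tested bins was not computed there. In genes with at least 4 bins the shares were 30.9% of 262 called and 23.6% of 38344 tested bins. Leaving out folds of 10 or more, chosen after seeing the data, left 266 bins called, and ftz-f1 was then not called. At an adjusted p under 0.01, 203 bins remained, and of 32 called named genes 6 were lost (ftz-f1, Tm1, RpS18, cher, RpL27, and the unit of CG15742 and mew). With the smallest p of each gene multiplied by its tested bins, 142 genes were called, without Tm1, cher and that unit. No paired analysis was possible because the table has no value per library, and for the same reason no library could be left out in turn. Low counts limit the precision of the bins of Eip74EF, Syt1, Tm1 and mew.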
